A study of Mus musculus with 6 samples.

Results

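The AP-1 immediate early transcription factors examined here are 7 genes, Jun, Junb, Jund, Fos, Fosb, Fosl2 and Atf3, chosen by name from the family. All 7 were among the 16415 genes of the deposited table, and all 7 passed the filter on low values. They were measured by bulk mRNA sequencing of mouse trigeminal ganglion, the ganglion that holds the cell bodies of the sensory neurons of the face and head. The samples are 3 libraries labelled SETDB2-up and 3 labelled NC-up. Both groups carry the genotype label WT, and the labels give neither the age of the mice, nor the agent behind each name, nor its route. They also do not say whether the libraries came from separate animals, so p-values describe the spread between these libraries, which may be technical. The series title places SETDB2, a member of a histone H3 lysine 9 methyltransferase family, in a pathway with KLF4, IDE and CGRP in sensory neurons in migraine.

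AP-1 is a dimer of basic leucine zipper proteins, in which a Jun protein pairs with another Jun protein, a Fos protein or a protein of the ATF family to bind DNA. Jun proteins can pair with each other, whereas Fos proteins need a Jun partner. Most of the genes are transcribed within minutes of a stimulus, through phosphorylated factors at their promoters, and their messenger RNAs are short lived. In sensory ganglia, Fos and Fosb are used as markers of recent activity, and Jun and Atf3 are induced in neurons whose axons are injured.

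Promoter sequence is shown for the 2 members that changed, Jun and Jund, and for Fos, the classical activity marker, which did not pass the test. Each line gives the 250 bases before the RefSeq start (GRCm38.p6), 5′ to 3′ on the gene's strand, in lower case, with capitals marking matches to the motifs searched. The motifs were TGACNTCA, the cyclic AMP response element and its Jun variant; TGANTCA, the AP-1 site; TGACG, the core of the first motif, which it overlaps where N is G; and the CArG box bound by SRF. Both strands were read.
Jun, chr4:95052223-95052472, minus strand: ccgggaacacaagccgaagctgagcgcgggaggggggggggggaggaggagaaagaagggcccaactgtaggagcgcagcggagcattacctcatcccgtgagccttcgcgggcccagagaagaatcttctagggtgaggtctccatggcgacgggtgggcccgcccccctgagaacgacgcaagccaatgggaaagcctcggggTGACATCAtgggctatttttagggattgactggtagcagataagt
Jund, chr8:70697489-70697738, plus strand: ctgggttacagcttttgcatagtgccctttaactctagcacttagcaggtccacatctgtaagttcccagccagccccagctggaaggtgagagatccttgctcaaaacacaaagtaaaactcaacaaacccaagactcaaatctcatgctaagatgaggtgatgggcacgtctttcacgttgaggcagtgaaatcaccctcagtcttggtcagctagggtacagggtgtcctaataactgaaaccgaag
Fos, chr12:85473640-85473889, plus strand: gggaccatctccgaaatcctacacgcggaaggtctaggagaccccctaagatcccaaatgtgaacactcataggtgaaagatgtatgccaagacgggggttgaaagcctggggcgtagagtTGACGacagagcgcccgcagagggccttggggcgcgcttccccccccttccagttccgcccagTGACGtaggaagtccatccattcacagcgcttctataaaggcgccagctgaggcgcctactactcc
The Jun window held TGACATCA from 45 to 38 bases before the start, the letters of a site in the Jun gene that Jun and ATF proteins are known to bind. The Fos window held 2 copies of TGACG. The Jund window held none of these letters. It lies before the start used by the table and by RefSeq, which is 1210 bases upstream of the start in GENCODE M21. Over all 7 members, TGACNTCA was in 1 window, TGACG in 4 (Fos, Fosb, Junb and Atf3), and neither TGANTCA nor the CArG box in any. Of 32851 promoter windows of this length in the genome, 7.49% held TGACNTCA, 6.75% TGANTCA, 17.8% TGACG and 1.47% a CArG box. A match is a description of the letters and not evidence of binding. Bases farther upstream than 250 were not searched, so absence from a window does not mean that the gene lacks the site.

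Values below are normalised read counts, that is, read counts per gene divided by the authors by a single factor for each library. Fold changes are differences of log2(value + 1), SETDB2-up over NC-up, and a gene is called changed where its adjusted p in limma is under 0.05 over all 16387 genes tested. The libraries held 20355707 to 23501386 recovered reads in SETDB2-up and 19334997 to 23395693 in NC-up.

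The libraries were those of sensory ganglion. All 12 sensory neuron markers were measured, with a summed level of 387600 to 403130 normalised reads in SETDB2-up and 379690 to 399010 in NC-up libraries, and satellite glial and Schwann cell markers were at 97045 or more in every library. Setdb2 had 113, 97.6 and 104 normalised reads in SETDB2-up libraries against 69.9, 58.4 and 71.5 in NC-up libraries (log2 fold change 0.65 ± 0.19 SE, with an adjusted p of 0.0253 in limma). The 10 hepatocyte markers summed to 2729, 6373 and 77.6 in SETDB2-up libraries 1, 2 and 3, against 46.0 to 52.7 in NC-up libraries, where Alb, Apoa1, Fgb, Serpina1a and Serpina1d were at 0. Keratinocyte markers summed to 119 to 142 in SETDB2-up libraries, where Krt5 was at 0, and 188 to 572 in NC-up libraries, and skeletal muscle markers to 46.8 to 112 in SETDB2-up and 97.5 to 258 in NC-up libraries. Fibroblast markers summed to 19269 to 22213 in SETDB2-up and 21983 to 25905 in NC-up libraries, endothelial markers to 2060 to 2200 in SETDB2-up and 2326 to 2569 in NC-up, macrophage markers to 1256 to 1550 in SETDB2-up and 1345 to 1862 in NC-up, and erythroid markers to 5249 to 15488 in SETDB2-up and 7806 to 15313 in NC-up libraries. Of the markers tested, 7 of 7 for hepatocytes rose. Falls were called for 5 of 5 keratinocyte, 3 of 5 muscle and 3 of 6 fibroblast markers. They were also called for 3 of 6 Schwann cell, 1 of 5 endothelial and 1 of 5 erythroid markers. By this rule 8.71% of all genes tested fell and 7.71% rose. Alb, Serpina1d, Apob and Plg passed the filter on low values only through the SETDB2-up libraries, where they were high. Krt14 passed likewise through the NC-up libraries. For such genes the count is no test of direction. Of 12 sensory neuron markers 2 rose, Calca (0.26 ± 0.05) and Scn9a (0.28 ± 0.06), and 1 fell, Rbfox3 (-0.38 ± 0.06, log2 fold change and SE). Of 7 satellite glial markers Cdh19 rose (0.69 ± 0.07) and Sox10 fell (-0.46 ± 0.06, log2 fold change and SE). After the correction for GC content described below, 6 of 7 hepatocyte markers and 3 of 12 sensory neuron markers rose, beside 1.79% of all genes. The neuron markers were Calca (0.21), Prph (0.18) and Tubb3 (0.17, log2 fold change), while Scn9a no longer passed (0.10, with an adjusted p of 0.293 in limma). The markers that then fell, beside 3.56% of all genes, were 2 of 5 for keratinocytes, 1 of 5 for muscle and 3 of 6 for fibroblasts. They were also 1 of 5 for erythroid cells and 1 of 12 for sensory neurons. For Schwann cells 0 of 6 and for endothelium 0 of 5 fell (2 of each at an unadjusted p under 0.05 in limma). Among satellite glia 1 was higher and 1 lower. With SETDB2-up library 3 alone in its group, Jun fell by 0.36 and Jund by 0.51 on the log2 scale, both past the threshold in limma. The part of the non-neuronal cell types in the AP-1 values was not tested.

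Jund and Jun fell, none of the 7 members rose, and the other 5 did not pass. Over all genes tested, 8.71% fell and 7.71% rose by this rule, 16.4% in either direction. At an unadjusted p under 0.05 the count of members that rose was 0 as well, and edgeR and DESeq2 on recovered reads called 0 members higher. The median log2 fold change of the 7 members was -0.12, against 0.00 over all genes tested. In bulk tissue, fewer cells of a type and less RNA per cell cannot be told apart.

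**Figure D1:**
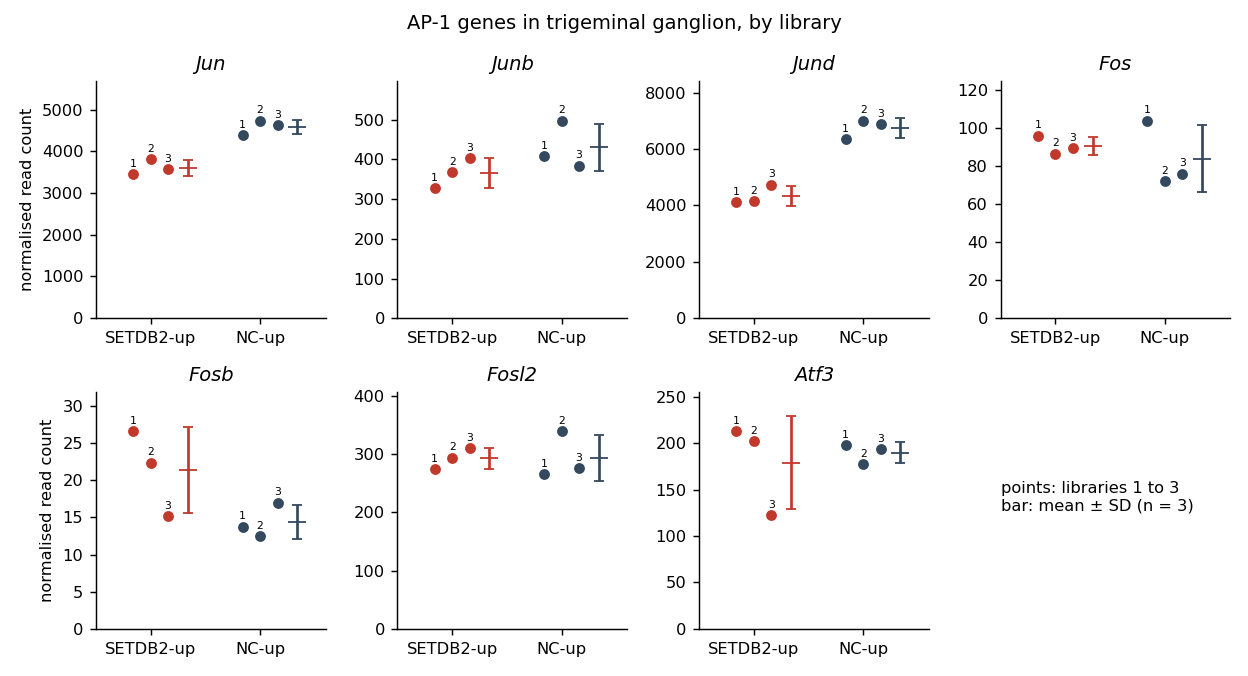
Normalised read count of each AP-1 gene (y axis, from 0) in the SETDB2-up and NC-up libraries, with the library number above each point and the mean ± SD of 3 libraries beside them. The SETDB2-up points lie below all NC-up points for Jun (3445 to 3821 in SETDB2-up against 4391 to 4737 in NC-up) and Jund (4124 to 4738 in SETDB2-up against 6345 to 7011 in NC-up), and the groups overlap for the other 5 genes.

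The Jun family supplies the partner that every Fos protein needs. Jund encodes JunD, the member that is expressed at a steady level in most resting tissues and is known for slowing growth (chromosome 8, 70697739 to 70700616, plus strand, GRCm38, gene 16478). It had 4124, 4148 and 4738 normalised reads in the SETDB2-up libraries 1, 2 and 3, against 6345, 7011 and 6889 in NC-up libraries 1, 2 and 3. All SETDB2-up libraries were below all NC-up libraries, and SETDB2-up library 3 was the highest of its group. The means were 4337 ± 348 in SETDB2-up and 6748 ± 355 in NC-up (SD, n = 3 each). On the log2 scale the fold change was -0.64 ± 0.06 (SE, with an adjusted p of 3.2e-06 in limma), which is 0.642-fold, with a 95% interval of 0.586 to 0.704. It was the steepest fall among the 7 members. Jund also has the highest GC content of them, 67.2% of its GENCODE transcript. That transcript starts 1210 bases downstream of the RefSeq start, and any RefSeq bases before it are not in this value. After a correction for GC content, which used this value, the log2 fold change of Jund was -0.19 ± 0.05 (SE, with an adjusted p of 0.0251 in limma).

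Jun encodes c-Jun, the strongest activator of the Jun family and the main target of the JNK kinases (chromosome 4, 95049036 to 95052222, minus strand, gene 16476). It had 3445, 3821 and 3564 normalised reads in the SETDB2-up libraries and 4391, 4737 and 4628 in NC-up libraries, again without overlap. The means were 3610 ± 193 in SETDB2-up and 4585.5 ± 177 in NC-up (SD, n = 3 each). On the log2 scale the fold change was -0.35 ± 0.06 (SE, with an adjusted p of 0.000678 in limma), or 0.787-fold with a 95% interval of 0.722 to 0.857. With the correction for GC content it was -0.24 ± 0.05 (SE, with an adjusted p of 0.0160 in limma). Jun and Jund were the 2 members whose SETDB2-up values all lay below the NC-up values, an arrangement found in 16.4% of all genes tested. Groups that did not overlap in either direction made up 33.3% of all genes tested.

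Junb encodes JunB, which activates less than c-Jun and can hold it in check (chromosome 8, 84976909 to 84978748, minus strand, gene 16477). It had 328, 368 and 402 normalised reads in SETDB2-up libraries, against 409, 498 and 384 in NC-up libraries. SETDB2-up library 3 was above NC-up library 3, so the groups overlapped. SETDB2-up minus NC-up was -0.23 ± 0.11 on the log2 scale (SE, with an adjusted p of 0.183 in limma), with a 95% interval from -0.47 to 0.01. After the correction for GC content the sign turned, to 0.07 ± 0.10 (SE, with an adjusted p of 0.750 in limma).

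The ratio of Jund to Jun was 1.197, 1.09 and 1.33 in SETDB2-up libraries and 1.44, 1.48 and 1.49 in NC-up libraries, in normalised reads not scaled to length. All 3 SETDB2-up ratios were lower, with a mean log2 difference of -0.29. The exact two-sided permutation test gave p = 0.1, the smallest that 3 libraries against 3 allow. The correction for GC content brought the fold changes of the 2 genes close to each other (-0.19 and -0.24), with Jun's then the larger fall.

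The Fos family members bind DNA only with a partner and include the usual readouts of recent neuronal activity. Fos encodes c-Fos (chromosome 12, 85473890 to 85477274, plus strand, gene 14281). It had 95.9, 86.5 and 89.2 normalised reads in the SETDB2-up libraries and 104, 71.8 and 76.0 in NC-up libraries. NC-up library 1 was the highest of all 6 and the other two NC-up libraries were the lowest, so the groups overlapped. The difference was 0.13 ± 0.20 on the log2 scale (SE, with an adjusted p of 0.709 in limma), and the 95% interval ran from 0.820-fold to 1.45-fold. Leaving out NC-up library 1 gave 0.29 and leaving out NC-up library 2 gave 0.03, neither past the threshold.

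Fosb encodes FosB and the long-lived ΔFosB that accumulates with repeated stimulation (chromosome 7, 19302696 to 19310118, minus strand, gene 14282). It was the least abundant member, with 28, 22 and 17 recovered reads in SETDB2-up libraries and 13, 13 and 19 in NC-up libraries. As normalised reads these were 26.6, 22.4 and 15.2 in SETDB2-up and 13.8, 12.5 and 17.0 in NC-up. SETDB2-up libraries 1 and 2 were above every NC-up library, and SETDB2-up library 3 was below NC-up library 3. SETDB2-up minus NC-up was 0.52 ± 0.41 on the log2 scale (SE, with an adjusted p of 0.426 in limma), with a 95% interval from 0.789-fold to 2.59-fold, so at this depth changes in either direction within that interval could not be told from no change. With SETDB2-up library 3 alone in its group the log2 fold change was 0.08. The hepatocyte markers were also highest in SETDB2-up libraries 1 and 2, and their part in the Fosb values was not tested.

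Fosl2 encodes Fra-2, a Fos protein without the strong activation domain of c-Fos (chromosome 5, 32136472 to 32157840, plus strand, gene 14284). It had 275, 294 and 309.6 normalised reads in SETDB2-up libraries, against 266, 339 and 276 in NC-up libraries. The SETDB2-up values lay inside the range of the NC-up values. The difference was 0.00 ± 0.12 on the log2 scale (SE, with an adjusted p of 0.994 in limma), and the 95% interval ran from 0.842-fold to 1.19-fold.

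Atf3 encodes a stress-induced bZIP protein that pairs with Jun proteins and is a standard marker of axotomised sensory neurons (chromosome 1, 191170296 to 191183333, minus strand, gene 11910). It had 213, 202 and 122 normalised reads in the SETDB2-up libraries and 198, 177 and 194 in NC-up libraries. SETDB2-up library 3 was the lowest of all 6, and SETDB2-up libraries 1 and 2 were above every NC-up library. The means were 179 ± 49.6 in SETDB2-up and 189.75 ± 11.1 in NC-up (SD, n = 3 each), which on the log2 scale is a difference of -0.12 ± 0.18 (SE, with an adjusted p of 0.680 in limma). Its direction rested on that library: without SETDB2-up library 3 the log2 fold change was 0.13, and with SETDB2-up library 3 alone in its group it was -0.63, neither past the threshold. The coefficient of variation of Atf3 was 27.7% in SETDB2-up and 5.84% in NC-up. Its pooled SD within groups, 0.32 on the log2 scale, was above that of 94.3% of the 2110 genes whose mean value lay within 1.5 times its own. For Jun the same SD was 0.07, above that of 45.7% of 1156 such genes, and for Jund it was 0.10, above 82.5% of 789.

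Levels were compared between members as RPKM, the recovered reads per kilobase of transcript scaled to the total of each library. On that scale Jund was highest, at 125 ± 8.68 in SETDB2-up and 195 ± 8.39 in NC-up (SD, n = 3 each). With the longer RefSeq locus as its length, 2878 instead of 1668 bases, these levels would be 72.7 ± 5.03 in SETDB2-up and 113 ± 4.86 in NC-up, each still above the mean of Jun in its group. Jun followed at 54.6 ± 2.81 in SETDB2-up and 69.3 ± 2.07 in NC-up. Junb stood at 9.76 ± 0.88 in SETDB2-up and 11.5 ± 1.58 in NC-up, and Atf3 at 4.37 ± 1.248 in SETDB2-up and 4.61 ± 0.30 in NC-up. Fosl2 (2.16 ± 0.10 in SETDB2-up and 2.17 ± 0.28 in NC-up) and Fos (2.07 ± 0.13 in SETDB2-up and 1.92 ± 0.42 in NC-up) did not differ beyond their spread. Fosb was lowest, at 0.27 ± 0.08 in SETDB2-up and 0.18 ± 0.03 in NC-up. Between the other neighbours in this order the ranges over the 6 libraries did not meet, apart from Jund and Jun on the RefSeq length.

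**Figure D2:**
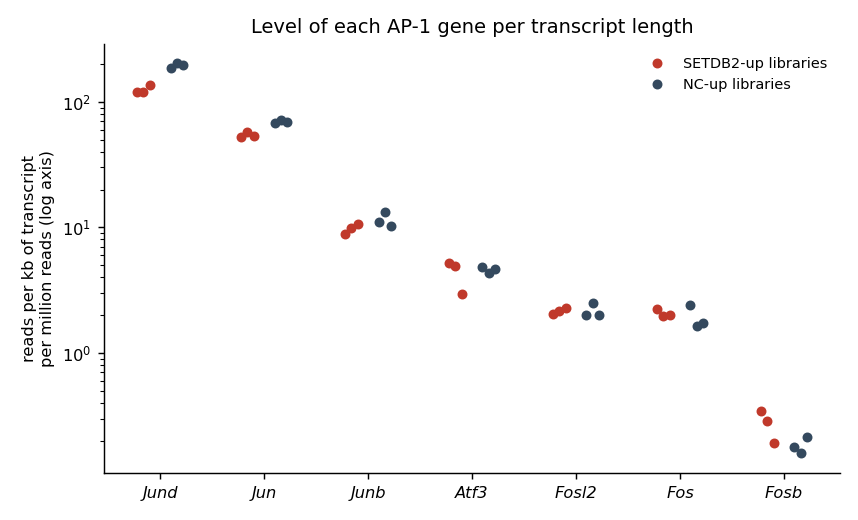
Level of each AP-1 gene in RPKM, scaled to the GENCODE M21 transcript length and to the recovered reads of each library (logarithmic y axis), 3 SETDB2-up and 3 NC-up points per gene. Jund and Jun lie at 52.8 or above in every library and Fosb at 0.344 or below, with Fosl2 and Fos level with each other.

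The summed level of the 7 members was 192, 197 and 207 in SETDB2-up libraries and 273, 295 and 286 in NC-up libraries, on the same per-length scale. Jund alone made up 62.8%, 60.9% and 65.5% of that sum in SETDB2-up libraries and 67.9%, 68.4% and 69.1% in NC-up libraries. The sum and these shares use the GENCODE length of Jund, 1668 bases. On its RefSeq length of 2878 bases, both the sum and the share of Jund would be smaller. Fos, Fosb and Fosl2 together made up 2.40%, 2.25% and 2.16% in SETDB2-up libraries, against 1.67%, 1.45% and 1.39% in NC-up libraries. Fosl1, a further Fos gene that was measured among the other bZIP genes, is not in the sum. The share of Fos, Fosb and Fosl2 was larger and the sum smaller in every SETDB2-up library. Jund and Jun make up most of the sum, so their falls alone lower it and raise that share. The values carry no correction for GC content, and neither Fos, Fosb nor Fosl2 passed the test by itself.

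Across the table, fold changes followed the GC content of the transcript, and the members lie at different points of that trend. In the decile of genes richest in GC (58.4% to 82.2%), which holds Junb and Jund, the median log2 fold change was -0.24 and 36.3% of the genes fell. In the decile that holds Jun and Fosb (54.07% to 56.05%), the median was -0.10 and 9.86% fell. Fos, Fosl2 and Atf3, between 51.9% and 53.1%, lie where the median was -0.00 or -0.05. Set against genes within 1 percentage point of their own GC content, Jund stood 0.15 below a median of -0.49 over 22 genes, of which 16 fell and 5 had a lower fold change than Jund. Jun stood 0.24 below a median of -0.11 over 1540 genes, of which 180 had a lower fold change. Junb stood 0.08 above its median of -0.31 over 242 genes. The correction, fitted as a smooth curve of each library's deviation against GC content, left Jund and Jun past the threshold, where 3.56% of genes fell and 1.79% rose, 5.35% in either direction. For Jund, the GC content used throughout is that of the GENCODE transcript, which is shorter than the RefSeq locus. What set the GC trend was not tested.

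**Figure D3:**
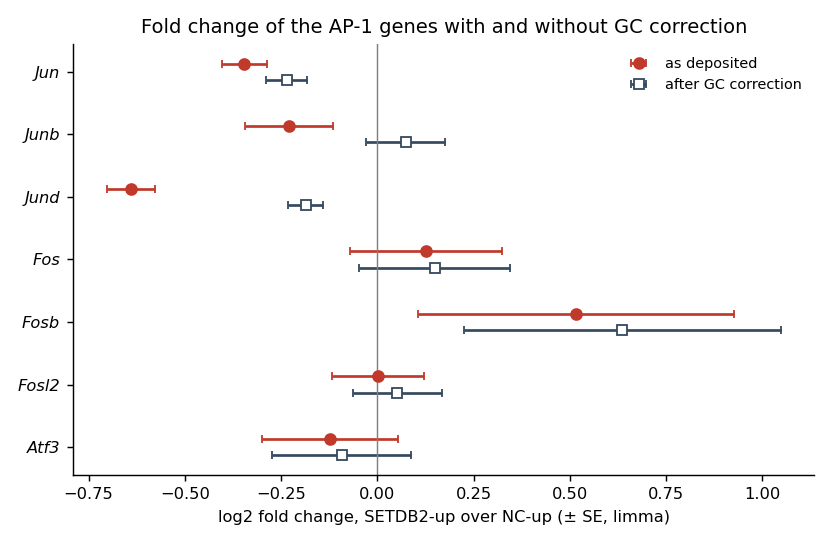
Log2 fold change of each AP-1 gene, SETDB2-up over NC-up, with its standard error (x axis), as deposited (filled circles) and after correction for GC content (open squares). The circle of Jund lies at -0.64 and its square at -0.19; for Jun they lie at -0.35 and -0.24, and for Junb on opposite sides of 0.

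**Figure D4:**
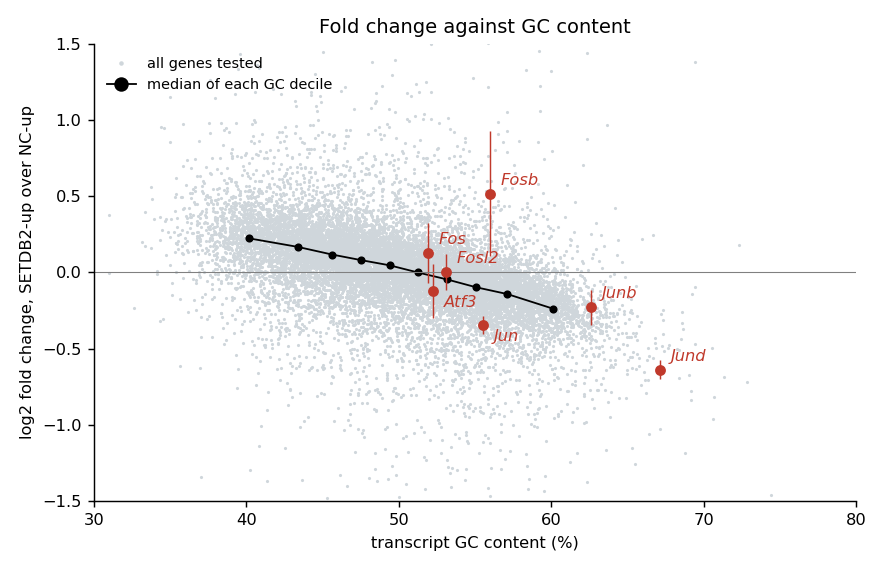
Log2 fold change, SETDB2-up over NC-up (y axis), against transcript GC content in percent (x axis) for all genes with a GC value (grey), the median of each decile of genes by GC content (black) and the 7 AP-1 genes with their standard errors (red). The black line runs downward to -0.24, Jun lies below it, and Jund lies to the right of its last point; 56 genes fall outside the axes.

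Other immediate early genes were described from a list of 28 names, of which 25 were measured. Of these 8 fell and none rose (limma adjusted p under 0.05), and edgeR and DESeq2 also called 8 lower and 0 higher. By the same limma rule 8.71% of all genes tested fell and 7.71% rose. At an unadjusted p under 0.05, 1 was higher. The list's median log2 fold change was -0.24. The 4 with the smallest p were the nuclear receptor Nr4a1, the zinc-finger factors Egr3 and Klf2, and the kinase Sik1. Nr4a1 had 769, 898 and 916 normalised reads in SETDB2-up libraries against 1286, 1225 and 1057 in NC-up libraries. Egr3 had 194, 192 and 181 in SETDB2-up libraries against 284, 398 and 265 in NC-up libraries. These falls were -0.46 ± 0.09 for Nr4a1, -0.72 ± 0.14 for Egr3, -0.65 ± 0.14 for Klf2 and -0.62 ± 0.13 for Sik1 (log2 fold change, SE). Egr2, which is also a factor of myelinating Schwann cells (0.04 ± 0.10 SE), and Klf6 (0.03 ± 0.07 SE) were the most abundant that did not pass. After correction for GC content 5 fell and 0 rose, beside 3.56% and 1.79% of all genes. The 5 included Nr4a1 (-0.32 ± 0.08), Egr3 (-0.71 ± 0.14) and Sik1 (-0.52 ± 0.13), while Klf2 did not pass (-0.38 ± 0.13, with an adjusted p of 0.116 in limma). Without that correction and with SETDB2-up library 3 alone in its group 2 fell.

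Among 19 other bZIP genes whose proteins can pair with AP-1 members, 17 were measured, 1 fell and none rose. With 8.71% of all genes tested falling and 7.71% rising, counts this small are not read as a trait of the list. At an unadjusted p under 0.05, limma had 1 higher, and edgeR and DESeq2 called 0 higher. The gene that fell was Maf, a large Maf protein that directs the development of touch neurons. It had 4060, 4419 and 3807 normalised reads in SETDB2-up libraries, against 5311, 5588 and 5336 in NC-up libraries. On the log2 scale it changed by -0.40 ± 0.06 (SE, with an adjusted p of 0.000237 in limma), and -0.48 ± 0.05 after correction for GC content. Nfe2l1 (-0.00 ± 0.05 SE) and the small Maf gene Mafg (-0.09 ± 0.06 SE) were the most abundant that did not pass.

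Of 23 kinases and scaffolds that act upstream of AP-1, 3 rose and 3 fell, beside 7.71% and 8.71% of all genes tested. Map2k2, which activates ERK, had 1992, 2066 and 2233 normalised reads in SETDB2-up libraries against 2616, 2705.5 and 2773 in NC-up libraries, a log2 fold change of -0.36 ± 0.06 (SE). Map2k7, which activates JNK, changed by -0.27 ± 0.06 (SE). Rps6ka3, the kinase RSK2 that phosphorylates c-Fos, rose by 0.31 ± 0.07, and the JNK scaffold Spag9 rose by 0.24 ± 0.06 (log2 fold change, SE). Mapk3, which is ERK1 (-0.07 ± 0.06 SE), and the scaffold Mapk8ip3 (-0.06 ± 0.06 SE) did not pass. None of the 23 passed in limma after correction for GC content, where 3 higher and 2 lower had an unadjusted p under 0.05; without that correction edgeR and DESeq2 each called 3 higher and 3 lower.

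Of 15 measured transcription regulators of AP-1 genes, 2 fell and none rose, beside 8.71% and 7.71% of all genes tested. At an unadjusted p under 0.05, limma had 1 higher, and edgeR and DESeq2 called 0 higher. Srf, the factor that binds the CArG box of the Fos gene, had 649, 739 and 744 normalised reads in SETDB2-up libraries against 844, 962 and 1021 in NC-up libraries. On the log2 scale it changed by -0.40 ± 0.09 (SE, with an adjusted p of 0.00399 in limma), and -0.04 ± 0.08 (SE, with an adjusted p of 0.811 in limma) after correction for GC content. Crtc3, a coactivator of CREB, had a log2 fold change of -0.29 ± 0.08 (SE), and -0.15 ± 0.08 after correction. Mef2a (0.07 ± 0.07 SE) and Mef2d (-0.11 ± 0.07 SE) did not pass. Among 8 genes for turnover and cofactors of AP-1 proteins, 1 rose and none fell, by limma, edgeR and DESeq2 and also at an unadjusted p under 0.05 for falls. It was Itch, a ubiquitin ligase for Jun proteins (0.23 ± 0.08 SE, with an adjusted p of 0.0436 in limma), with 0.05 ± 0.07 after correction for GC content. Cops5, which binds c-Jun (0.15 ± 0.06 SE), and the ligase Fbxw7 (0.09 ± 0.06 SE) did not pass.

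**Figure D5:**
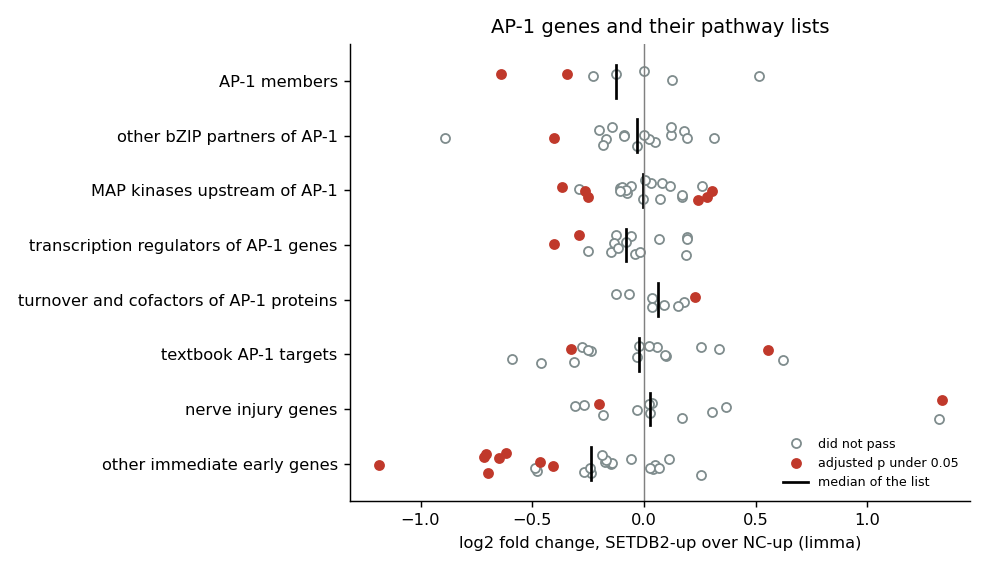
Log2 fold change of single genes, SETDB2-up over NC-up (x axis), for the 7 AP-1 genes and 7 further lists (rows); filled red points passed an adjusted p under 0.05 in limma, open points did not, and the bar is the list's median. The medians lie between -0.24 for other immediate early genes and 0.06 for turnover and cofactors of AP-1 proteins.

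Of 17 measured genes from a list of 20 textbook AP-1 targets, 1 rose and 1 fell, beside 7.71% and 8.71% of all genes tested. Plau, the urokinase protease, had 128, 123 and 155 normalised reads in SETDB2-up libraries against 104, 70.9 and 104 in NC-up libraries (log2 fold change 0.56 ± 0.19 SE, with an adjusted p of 0.0494 in limma). Hmox1, the haem-degrading oxygenase, had 308, 329.55 and 375 in SETDB2-up libraries against 433, 423 and 408.5 in NC-up libraries (-0.33 ± 0.10 SE, with an adjusted p of 0.0375 in limma). After correction for GC content neither passed, with log2 fold changes of 0.50 ± 0.19 for Plau and -0.27 ± 0.10 for Hmox1 (SE), and edgeR and DESeq2 did not call Plau. Vim (0.02 ± 0.05 SE) and Cd44 (0.10 ± 0.06 SE) were the most abundant that did not pass. Of 13 measured genes that rise in sensory neurons after nerve injury, 1 rose and 1 fell. Nts, the neuropeptide neurotensin, had 186, 184 and 87.4 normalised reads in SETDB2-up libraries against 58.3, 73.7 and 42.0 in NC-up libraries (log2 fold change 1.34 ± 0.26 SE, with an adjusted p of 0.00213 in limma). After correction for GC content Nts still passed (1.11 ± 0.26 SE, with an adjusted p of 0.0178 in limma). The list then had 2 that rose and 0 that fell, beside 1.79% and 3.56% of all genes. Itga7, an integrin, had -0.20 ± 0.06 (SE, with an adjusted p of 0.0263 in limma), and -0.04 ± 0.05 after correction for GC content, where it did not pass (adjusted p of 0.764 in limma). The chaperone Hspb1 (0.17 ± 0.08 SE) did not pass, but did after correction for GC content (0.45 ± 0.07 SE, with an adjusted p of 0.000782 in limma), and Vgf (-0.18 ± 0.07 SE) did not pass, with its sign turned to 0.17 ± 0.07 (SE) after that correction and still not past the threshold. Over these 7 lists of non-members, all 6 genes that rose had a GC content below the median of all genes (50.3%), and 14 of the 16 that fell were above it. The whole table leaned the same way. In the decile of genes poorest in GC 437 rose and 15 fell, and in the richest 4 rose and 563 fell. These counts are therefore not read as a trait of the lists.

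Genes with the profile most like a member's were ranked by the root mean square difference of log2(value + 1), centred per gene, over the 6 libraries, among genes with a mean of at least 100. The closest to Jun were Lemd3, an inner nuclear membrane protein, Gpr153, an orphan receptor, and Aebp2, a cofactor of Polycomb repressive complex 2, at 0.02, 0.02 and 0.03. Gpr153 had 1395.5, 1558 and 1443 normalised reads in SETDB2-up libraries against 1844, 1912 and 1924.5 in NC-up libraries. The closest to Fos were Olfml3, Shld1 and Stxbp3, at 0.03, 0.04 and 0.05, and NC-up library 1 was the highest library for all 3. The closest to Atf3 were Nsa2, Ppig and Thsd1, at 0.10, 0.10 and 0.11, each with its lowest value in SETDB2-up library 3. Likeness over 6 libraries is a description and carries no test.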

How the data were processed

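Per the labels' protocols, polyadenylated RNA was made into strand-specific libraries and sequenced as 150-base pairs. Per the submitters' processing notes, the tools were HISAT2 and FastQC and the build GRCm38. Tool versions, the read counter, its strand setting and its low-count filter were not given in sources used here. The deposited values are a normalised signal: read counts divided by the authors by a factor per library, as the values show, since 100% came out as whole reads (tolerance 0.001). Recovered reads summed to 20355707 to 23501386 in SETDB2-up and 19334997 to 23395693 in NC-up libraries, where 3 reads are 0.128 to 0.155 CPM. Replicate libraries differed by more than sampling noise (chi-square 3.97 to 9.93 for each degree of freedom).

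The test was limma 3.58.1 (R 4.3.3) with a mean-variance trend on log2(value + 1), for genes reaching 1 in 3 or more libraries (28 removed). Benjamini-Hochberg adjustment ran over all genes tested. The test was run on simulated counts that held no GC trend, so that check does not cover the trend seen here. Intervals for folds are limma's 95% intervals. Alternatives were edgeR 4.0.16, DESeq2 1.42.0 and limma-voom on recovered reads, other scaling, pseudocount and filter, a replicate block, a GC correction and leaving out libraries. GC content and length came from the longest GENCODE M21 transcript, protein-coding where there was one (94.7% of genes), and promoters from RefSeq GRCm38.p6. No other listed gene overlapped a member's locus. The named genes were all members, up to 4 called genes with the smallest p and 2 abundant others per list, and the nearest profiles. Members and lists were chosen with earlier results of these data known.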

Additional observations from a re-analysis of the deposited data

How the results depend on the processing

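Jun and Jund fell past the threshold under all 17 alternatives, and no member rose past it under any; log2 fold changes ranged from -0.39 to -0.24 for Jun and from -0.70 to -0.19 for Jund, the smallest falls coming with the GC correction. Fosl2 turned sign at values near 0: -0.0095 in edgeR with TMM and -0.0063 with RLE factors, -0.0064 in DESeq2 and -0.0036 in limma-voom. Leaving out single libraries gave -0.066 to 0.11. Junb turned to 0.074 with the GC correction, with or without the replicate block, and Atf3 ranged from -0.27 to 0.13 on leaving out single libraries, turning sign without SETDB2-up replicate 3. The count of other immediate early genes that fell was 5 with the GC correction and 2 without SETDB2-up replicates 1 and 2, which leaves a lone library assumed to vary like the NC-up group; leaving out single libraries gave 7 to 9. DESeq2 gave no adjusted p for Fosb. The replicate block kept 2 members lower and called 3618 genes against 2690 without it. With the GC correction the block called 1670 genes, against 830 without the block. With the block 9 other immediate early genes fell, with or without the GC correction. Same-numbered libraries correlated at 0.04 to 0.05 in their deviations, and differently numbered ones at -0.035 to -0.0056. This is a hint of pairing from the data, but all were under 0.1, so the numbers were not taken as pairs. The GC correction called 830 genes, leaving out SETDB2-up replicate 1, SETDB2-up replicate 2 or NC-up replicate 2 called 1093, 1573 and 1611, and leaving out SETDB2-up replicates 1 and 2 called 540. Depth limits Fosb most, with 13 to 28 reads per library.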
